A study of Homo sapiens with 12 samples.

Results

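The interferon-stimulated genes followed here were ISG15, IFI6, IFI27, IFI30, IFIT1, IFIT2, IFIT3, IFITM1 and IRF1, 9 of the 18811 genes with a named probe on the array. Every named probe of these genes was taken, which gave 11 of 47230 probes. The RNA came from WM35, an established human melanoma cell line, and was read on 12 Illumina BeadChip arrays of 1 colour, 1 for each sample. Control cells received DMSO, the vehicle (2 arrays), and the labels state no time for them. Trifluridine (TFT), a thymidine analog that enters DNA and damages it, was applied for 8 h (3 arrays) or 24 h (2 arrays). Lactimidomycin (LTM), which blocks the elongation step of translation, was likewise applied for 8 h (3 arrays) or 24 h (2 arrays). Doses were the concentrations that inhibited by 75% at 72 h. The question asked of these genes was whether trifluridine at 24 h raised them. Whether replicates were separate cultures is not stated, and the p-values therefore cover the spread between these samples alone, which may be technical.

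Interferons are secreted proteins that signal through paired cell-surface receptors, JAK kinases and STAT transcription factors. Type I interferon acts mainly on promoters with the interferon-stimulated response element (ISRE), and interferon gamma on promoters with the gamma-activated site (GAS). DNA damage can also switch these genes on, when DNA that has leaked into the cytosol is sensed by cGAS and STING. ISG15 is a ubiquitin-like protein that is attached to other proteins. IFI6 and IFI27 are small interferon-induced membrane proteins, and IFI30 is a lysosomal thiol reductase of antigen processing. IFIT1, IFIT2 and IFIT3 are related proteins that bind each other and, in the case of IFIT1, the end of foreign RNA. IFITM1 is a membrane protein that restricts virus entry, and IRF1 is a transcription factor that itself switches on interferon-stimulated genes.

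On 3 arrays the profile did not match the label. Over the 24325 probes tested, each centred on its mean over the 12 arrays, TFT 8 h replicate 3 had a correlation of -0.49 to each TFT 8 h partner, but of 0.73 to LTM 8 h replicate 2. For LTM 8 h replicate 1 the coefficients were -0.46 and -0.39 to its LTM 8 h partners, but 0.75 to TFT 24 h replicate 2. For TFT 24 h replicate 1 the coefficient was 0.44 to its partner, but 0.66 to TFT 8 h replicate 1. Pairs of one label among the remaining 9 arrays lay between 0.68 and 0.91. Probes are not independent replicates, and these coefficients carry no test. Each comparison of the member probes below is given on all 12 arrays as labelled and on 9 arrays without these 3. That leaves 1 array at TFT 24 h, assumed to vary like the other groups. The 3 arrays were picked on the same intensities that are tested, which lowers the spread within groups. SEs and adjusted p-values on 9 arrays are therefore likely too small, and calls on 9 arrays are descriptive. The arrays detected between 19485 and 20551 of the probes at a detection p under 0.05. Of 9 melanocyte lineage markers with a named probe, MITF, SOX10, EDNRB and ERBB3 were detected on all 12 arrays, PMEL on 4, and MLANA, TYR, TYRP1 and S100B on 0. Among markers of other cell types, PTPRC and CD3E (leukocytes), the 3 keratins (keratinocytes) and CDH5 and VWF (endothelium) were detected on 0 arrays, while CD14 and CD68 were detected on all 12.

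The promoters of the 4 members whose changes are described most below are shown first, as the 250 bases before the annotated start in RefSeq (GRCh38.p14), written 5′ to 3′ in the direction of the gene. Capitals mark the core of an ISRE, searched as GAAANNGAAA on either strand (TTTCNNTTTC on the opposite strand), and the GAS, searched as TTCNNNGAA, which reads the same on both strands. In ISG15 and IFI6, on chromosome 1, and in IFIT1, on chromosome 10, the capitals are ISRE cores. In IRF1, on chromosome 5, they are a GAS.
ISG15 (chr1:1013247-1013496, plus strand): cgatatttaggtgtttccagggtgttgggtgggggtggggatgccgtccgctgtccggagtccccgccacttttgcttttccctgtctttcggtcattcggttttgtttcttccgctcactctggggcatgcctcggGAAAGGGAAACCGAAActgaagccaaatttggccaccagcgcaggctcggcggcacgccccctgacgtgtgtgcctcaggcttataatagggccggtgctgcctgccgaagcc
IFI6 (chr1:27672193-27672442, minus strand): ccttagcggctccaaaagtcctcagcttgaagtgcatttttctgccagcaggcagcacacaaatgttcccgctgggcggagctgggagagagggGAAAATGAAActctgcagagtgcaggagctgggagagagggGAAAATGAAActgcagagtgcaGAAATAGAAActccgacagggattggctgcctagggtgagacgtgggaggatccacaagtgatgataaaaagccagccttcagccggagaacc
IFIT1 (chr10:89392373-89392622, plus strand): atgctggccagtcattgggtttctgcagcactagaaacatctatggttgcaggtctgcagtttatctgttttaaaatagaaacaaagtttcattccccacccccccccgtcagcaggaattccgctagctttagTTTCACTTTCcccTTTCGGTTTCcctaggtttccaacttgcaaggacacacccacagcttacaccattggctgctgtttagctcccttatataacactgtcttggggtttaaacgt
IRF1 (chr5:132490774-132491023, minus strand): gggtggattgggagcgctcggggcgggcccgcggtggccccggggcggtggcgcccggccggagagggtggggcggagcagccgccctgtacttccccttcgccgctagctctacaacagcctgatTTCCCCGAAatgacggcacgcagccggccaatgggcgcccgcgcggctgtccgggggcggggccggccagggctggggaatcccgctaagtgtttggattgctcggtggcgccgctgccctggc
In these windows ISG15 held 2 ISRE cores that share bases, IFI6 held 3 and IFIT1 held 2, and none of these 3 genes held the GAS. IRF1 held 1 GAS, at position -124 from the start, and 0 ISRE cores. Promoters of 8 members were listed, IFIT2 not among them, and 6 of the 8 held the ISRE core, against 3.02% of 35116 promoters of the same length. The GAS was found in 3 of the 8, against 6.57% of all promoters. Members are counted as genes, IFI27 and IFIT3 with more than 1 listed promoter each, while the percentages count single promoters. In IFI27 the GAS overlapped 2 ISRE cores. IFI30, on chromosome 19, held neither. A match of letters is a description and does not show that a factor binds there.

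Of the 11 probes, 9 were detected on at least 2 arrays and entered the tests, covering 8 of the 9 genes. Intensities below are log2 values after background correction and quantile normalization, and a level of 1 probe cannot be set against that of another. The single IFI27 probe was detected on 0 of 12 arrays (detection p 0.258 to 0.825), so nothing can be said about IFI27 beyond its lying near background. Of the 3 IFIT3 probes, ILMN_1664543 was likewise detected on 0 arrays (detection p 0.0766 to 0.347), and the other 2 on all 12. ISG15, IFI6, IFIT1, IFIT2 and IRF1 were detected on every array, and IFI30 on 11, failing only on the array labelled TFT 8 h replicate 3. IFIT1 was close to the detection limit on that array (detection p 0.0455) and on LTM 8 h replicate 2 (detection p 0.0416). IFI30 had a detection p of 0.0234 on control replicate 2. IFITM1 was detected on 5 arrays: both controls, TFT 8 h replicate 1, TFT 24 h replicate 2 and the array labelled LTM 8 h replicate 1. The scanner signal ranged from 389 to 1897 for IRF1 and reached at most 34.7 for IFITM1.

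**Figure D1:**
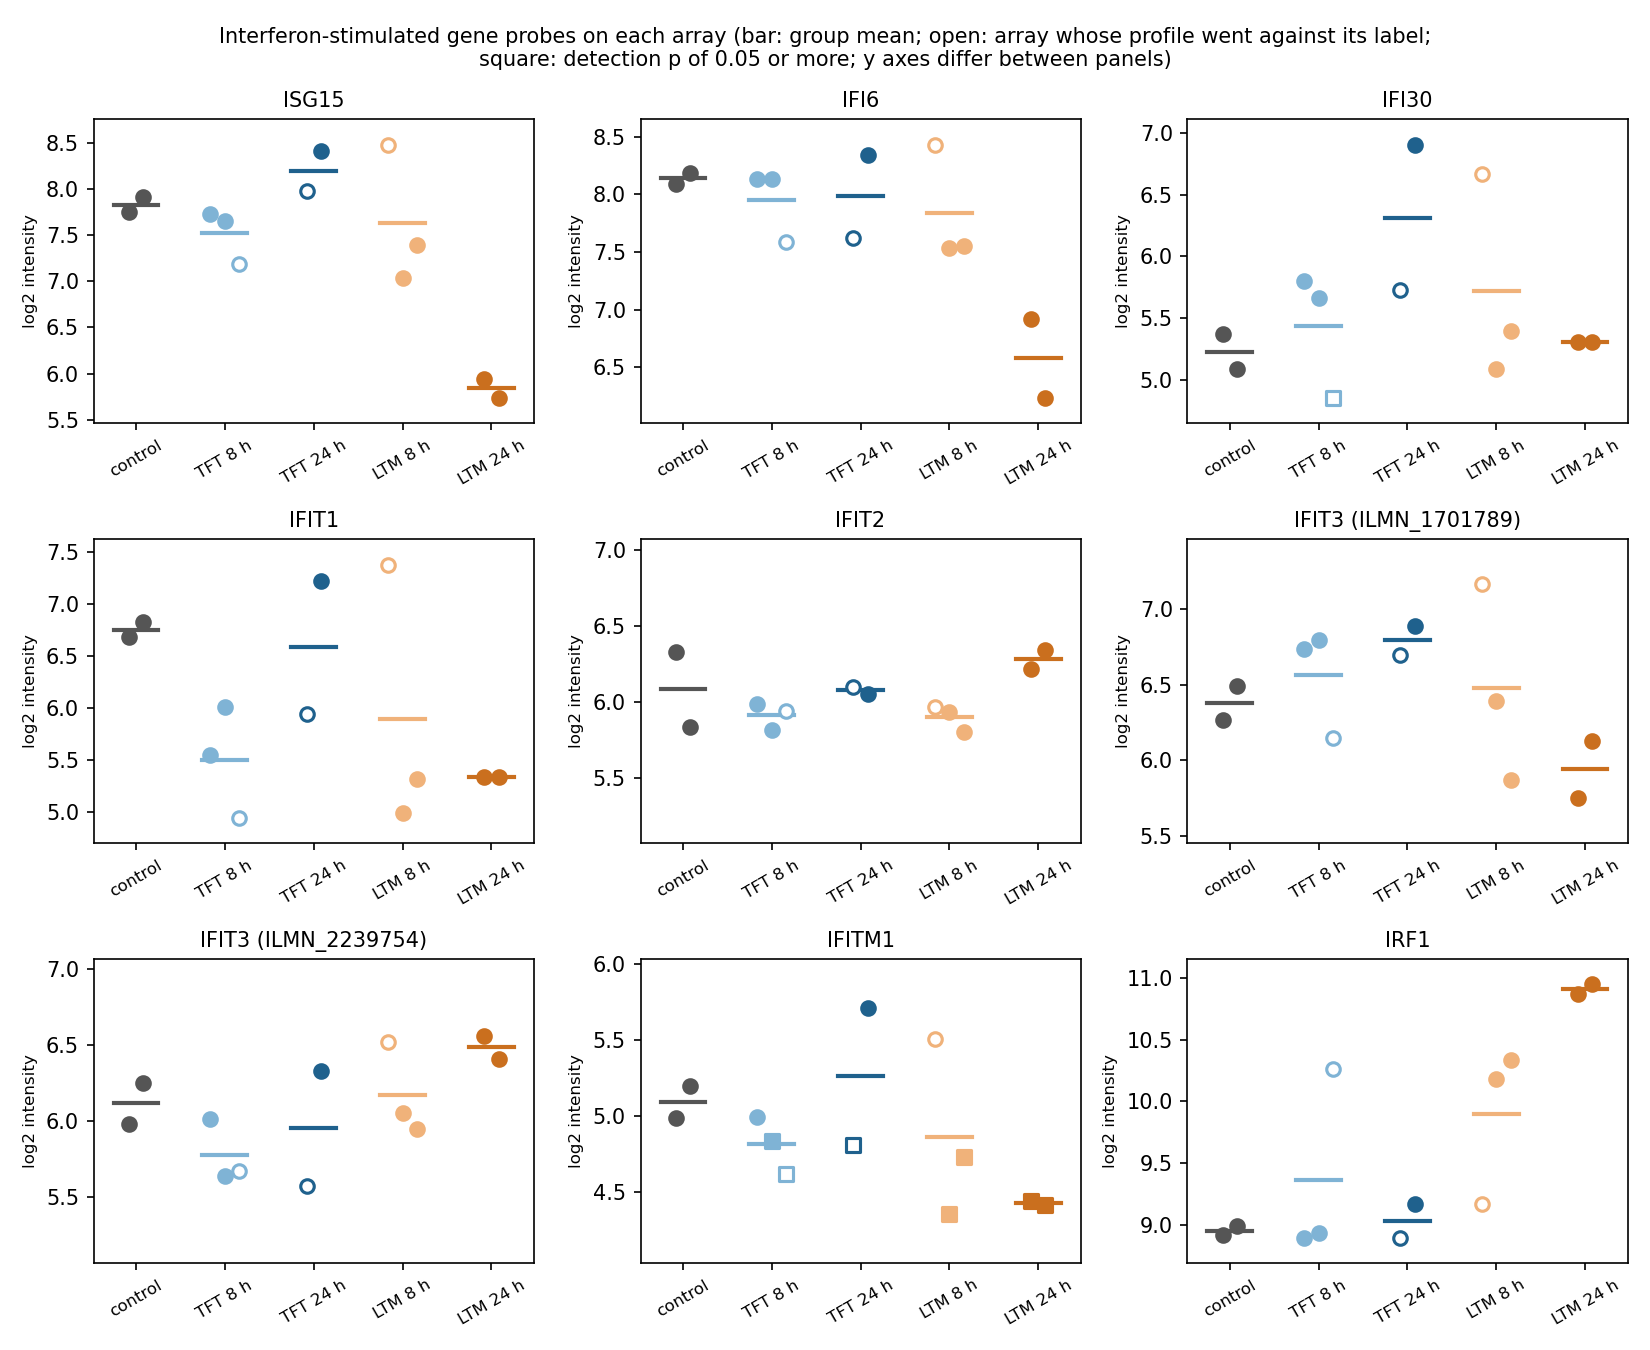
Log2 intensity (y axis, different for each panel) of the 9 tested probes on each of the 12 arrays, by labelled group (x axis). Points are arrays, bars are group means, open symbols are the 3 arrays whose profiles went against their labels, and squares are arrays where the probe was not detected at a detection p under 0.05. ISG15 and IFI6 are lowest on the LTM 24 h arrays, at 5.74 to 6.92, and IRF1 is highest there, at 10.87 and 10.95.

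At TFT 24 h as labelled, 0 of the 9 member probes passed against control, as did 0% of all 24325 probes (limma, Benjamini-Hochberg adjusted p under 0.05). At an unadjusted p under 0.05 there were 0 member probes and 1236 probes in all (5.08%), and with a trended, robust prior limma also called 0 members. The 2 arrays of this group differed widely in these genes, and most differences from control lay within that spread. Member probes had a median log2 difference of 0.08, against -0.00 over all probes, and 5 of the 9 were positive. Both treated arrays lay above both controls for 3 of the 9 probes, where 21.5% of all probes did the same, and both lay below for 0, against 22.6%.

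IFI30, the lysosomal reductase, differed most at TFT 24 h. It stood at 5.37 and 5.09 on the controls, 5.72 on the array labelled replicate 1 and 6.90 on replicate 2. The groups did not overlap, but the log2 fold change of 1.08 (SE 0.50) had a limma adjusted p of 0.966. Without the array labelled replicate 1, the single remaining array was 1.67 above the controls (SE 0.19, adjusted p = 0.011), which made IFI30 the only member called on 9 arrays, where 0.317% of all probes were called higher and 0.0493% lower. This call therefore rests on TFT 24 h replicate 2 alone.

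ISG15 stood at 7.75 and 7.91 on the controls and at 7.98 and 8.41 on the TFT 24 h arrays, with both treated arrays above both controls. Its log2 fold change of 0.36 had a 95% interval of -0.47 to 1.20 (limma adjusted p = 0.999), and on 9 arrays it was 0.58 (SE 0.19, adjusted p = 0.208). IFIT3 by probe ILMN_1701789 was likewise above the controls (6.27 and 6.49) on both TFT 24 h arrays (6.69 and 6.89), with a log2 fold change of 0.41 (interval -0.36 to 1.19). The other measured IFIT3 probe, ILMN_2239754, had 5.98 and 6.25 on the controls against 5.57 and 6.33, so the probes differed in sign on 12 arrays (0.41 and -0.17) and had the same sign on 9 (0.51 and 0.21).

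For IFIT1, the array labelled TFT 24 h replicate 1 was below the controls and replicate 2 above them. The controls stood at 6.68 and 6.82, and the 2 treated arrays at 5.94 and 7.22. IFI6 split the same way, at 8.09 and 8.19 on the controls against 7.62 and 8.34, and so did IFITM1, at 4.99 and 5.20 against 4.81, not detected, and 5.71. Their log2 fold changes as labelled were -0.17, -0.16 and 0.17, and on 9 arrays they were 0.47, 0.20 and 0.62 with adjusted p = 0.35, 0.747 and 0.186. IFIT2 was nearly level at 6.09 and 6.05 against 6.33 and 5.84 on the controls (log2 fold change -0.01, interval -0.40 to 0.38). IRF1 was level too, at 8.90 and 9.17 against 8.92 and 8.99 (log2 fold change 0.08, interval -0.90 to 1.06). On 9 arrays 8 of the 9 probes were positive, with a median of 0.47 against -0.01 over all probes, but all of these come from 1 treated array and share the same 2 controls.

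The array labelled LTM 8 h replicate 1 was close to TFT 24 h replicate 2 in these genes and unlike the other arrays of its own label. ISG15 was at 8.48 there, IFI30 at 6.67, IFIT1 at 7.38, IFITM1 at 5.51 and IRF1 at 9.17. GDF15, a secreted stress factor under p53 control that served as the check of the trifluridine response, reached 8.18 there and 8.35 on TFT 24 h replicate 2. Elsewhere GDF15 ranged from 5.03 to 6.16, with 5.56 on TFT 24 h replicate 1 as labelled. At TFT 24 h against control, GDF15 and the p53 target MDM2 had log2 fold changes of 1.65 and 0.56 on 12 arrays, neither of which passed, and of 3.04 and 0.91 on 9, where GDF15 passed. CDKN1A, another p53 target, was detected on 3 of the 12 arrays and on neither control, so it entered the tests through arrays where it was high. It was at least 1.84-fold higher on TFT 24 h replicate 2 than in the controls. At LTM 24 h against control, 1 of the 3 check probes tested passed higher on 12 arrays, as did 20.0% of all probes. With 3 probes, this count cannot show whether a rise in these check genes is particular to trifluridine. The values are given by label, and no group was formed from them.

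**Figure D2:**
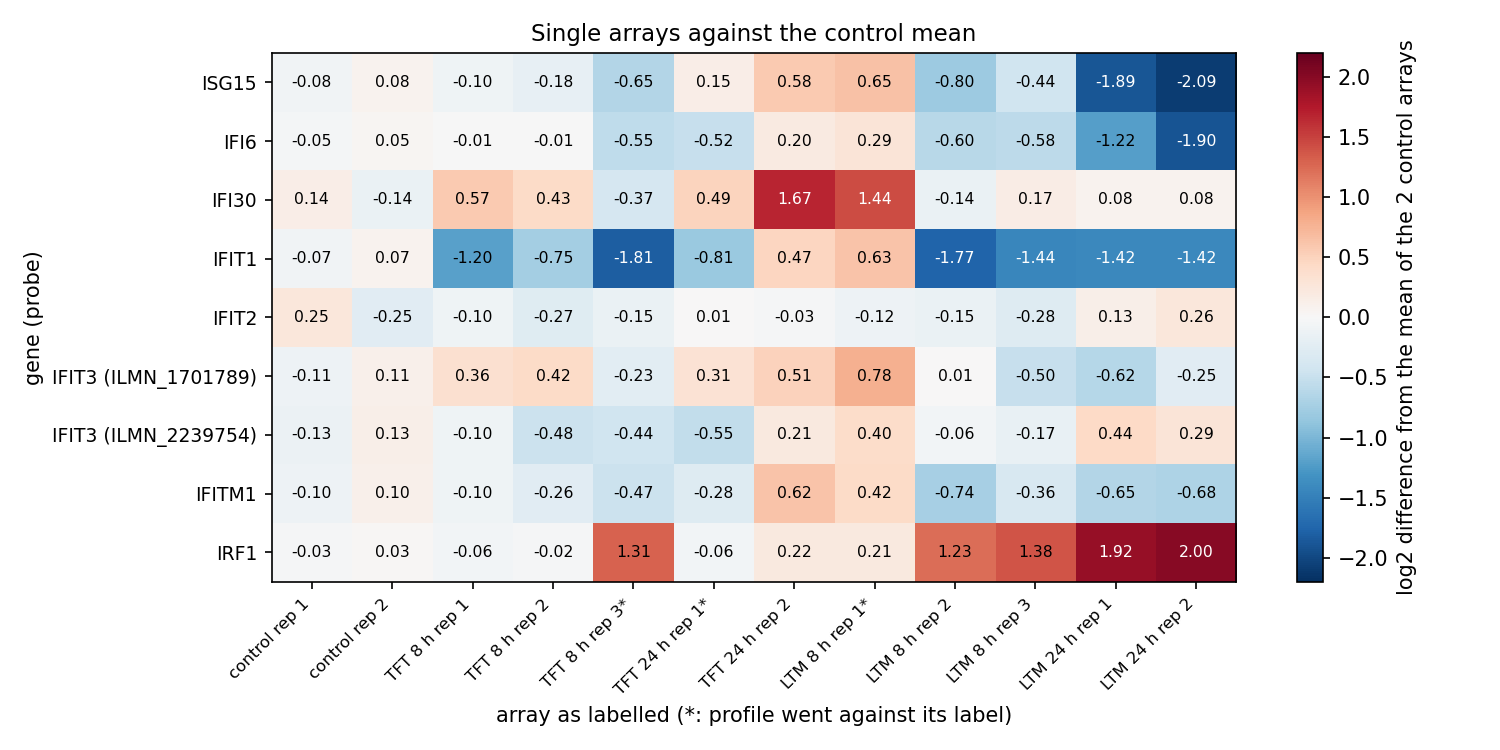
Difference in log2 intensity of each array (columns, as labelled, with asterisks on the 3 arrays whose profiles went against their labels) from the mean of the 2 control arrays, for the 9 tested probes (rows). TFT 24 h replicate 2 and the array labelled LTM 8 h replicate 1 show the highest IFI30 values, 1.67 and 1.44 above the controls, and the array labelled TFT 8 h replicate 3 shows an IRF1 value 1.31 above the controls.

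At TFT 8 h as labelled, 0 of 9 member probes passed, as did 0% of all probes, with 0 members and 2200 (9.04%) of all probes at an unadjusted limma p under 0.05 and 0 members with the trended, robust prior. IFIT1 had the largest difference. It stood at 5.55, 6.005 and 4.94 on TFT 8 h replicates 1 to 3, all below the controls at 6.68 and 6.82 (log2 fold change -1.25, SE 0.61, adjusted p = 0.574). On 9 arrays IFIT1 was the 1 member called, with a log2 fold change of -0.97 (SE 0.18, adjusted p = 0.0331), where 0.839% of all probes were called lower and 0.835% higher. ISG15 was below both controls on all 3 arrays (7.73, 7.65 and 7.18), by less than its spread (log2 fold change -0.31, SE 0.35). IRF1 was at 8.90 and 8.93 on replicates 1 and 2, level with the controls, and at 10.26 on the array labelled replicate 3. The 3 arrays lay below both controls for 2 of the 9 probes, IFIT1 and ISG15, against 17.8% of all probes, and above both for 0, against 15.0%. The other 6 probes had log2 differences between -0.34 and 0.21 on 12 arrays.

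Between TFT 24 h and TFT 8 h, 0 of 9 member probes passed on 12 arrays, as did 0% of all probes, with 0 members and 702 (2.89%) of all probes at an unadjusted limma p under 0.05 and 0 members with the trended, robust prior. On 9 arrays 2 members were called higher at 24 h, IFIT1 (log2 fold change 1.44, SE 0.22, adjusted p = 0.0292) and IFI30 (1.17, SE 0.19, adjusted p = 0.0348), against 0.448% of all probes higher and 0.160% lower. As labelled their differences of 1.08 and 0.87 (SE 0.61 and 0.46) both had an adjusted p of 0.952. As labelled, the groups did not overlap for 2 probes, ISG15 and IFIT2, both higher at 24 h, against 9.63% of all probes higher and 8.08% lower. The calls on 9 arrays again rest on the single array TFT 24 h replicate 2.

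LTM for 24 h gave clear changes, in opposite directions, among these genes. ISG15 and IFI6 fell and IRF1 rose, while IFIT2, IFI30 and both IFIT3 probes did not pass. Neither group of this comparison holds any of the 3 arrays, so the fold changes do not depend on them, but the SEs and adjusted p-values do, because the fit pools the spread of all groups. In bulk RNA, fewer cells expressing a gene and less of its RNA per cell cannot be told apart. As labelled, 2 of 9 member probes (22.2%) fell, against 20.9% of all probes, and 1 of 9 (11.1%) rose, against 20.0%, so the number of calls was near the background. Member probes had a median log2 fold change of -0.44, against -0.05 over all probes. The groups did not overlap for 5 member probes that were lower and 2 that were higher, against 39.4% and 35.1% of all probes. All fold changes here are relative to the same 2 control arrays as at 8 h.

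ISG15 stood at 5.94 and 5.74 on the LTM 24 h arrays against 7.75 and 7.91 on the controls. That was a fall to 5.84 ± 0.15 (SD, n = 2) from 7.83 ± 0.11 (SD, n = 2), 3.97-fold (log2 fold change -1.99, SE 0.38, limma adjusted p = 0.00193). No other array of the 12 was as low. IFI6 stood at 6.92 and 6.24 against 8.09 and 8.19, a 2.95-fold fall (log2 fold change -1.56, SE 0.35, adjusted p = 0.0049). The 2 IFI6 values were apart by more than the whole range of the controls, and without LTM 24 h replicate 2 the log2 fold change was -1.22 with an adjusted p of 0.0609.

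IRF1 stood at 10.87 and 10.95 against 8.92 and 8.99 on the controls. This was a 3.88-fold rise, with a log2 fold change of 1.96 (SE 0.45, limma adjusted p = 0.00511), and both LTM 24 h arrays lay above the other 10.

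IFIT1 was lower on both LTM 24 h arrays, at 5.34 on replicate 2 and 5.33 on replicate 1, than on the controls at 6.68 and 6.82. Its fitted change of -1.42 (SE 0.66) did not pass as labelled (limma adjusted p = 0.112), passed on 9 arrays (SE 0.18, adjusted p = 7.66e-05), and passed without the array labelled LTM 8 h replicate 1 alone (adjusted p = 0.0106). IFITM1 was not well above background on either LTM 24 h array, so only a bound can be given, with each such array set no lower than its dimmest detected probe. It was at least 1.14-fold lower than in the controls, with means of 4.43 and 5.09 (adjusted p = 0.158 on 12 arrays and 0.00465 on 9). On 9 arrays 4 of 9 members were thus called lower, against 28.2% of all probes, and 1 higher, against 26.1%.

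The IFIT3 probes went apart at LTM 24 h. ILMN_1701789, designed on transcript NM_001031683 like the undetected ILMN_1664543, stood at 5.75 and 6.13 against 6.27 and 6.49 on the controls (log2 fold change -0.44, SE 0.35, limma adjusted p = 0.364). ILMN_2239754, designed on NM_001549, stood at 6.56 and 6.41 against 5.98 and 6.25 (0.37, SE 0.27, adjusted p = 0.312). In both the groups did not overlap, in opposite directions, and neither passed, on 12 arrays or on 9 (adjusted p = 0.082 and 0.0845). IFIT2 was at 6.22 and 6.34 against 6.33 and 5.84 (0.20, interval -0.20 to 0.59), and IFI30 at 5.31 on both arrays against 5.37 and 5.09 (0.08, interval -1.02 to 1.18).

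**Figure D3:**
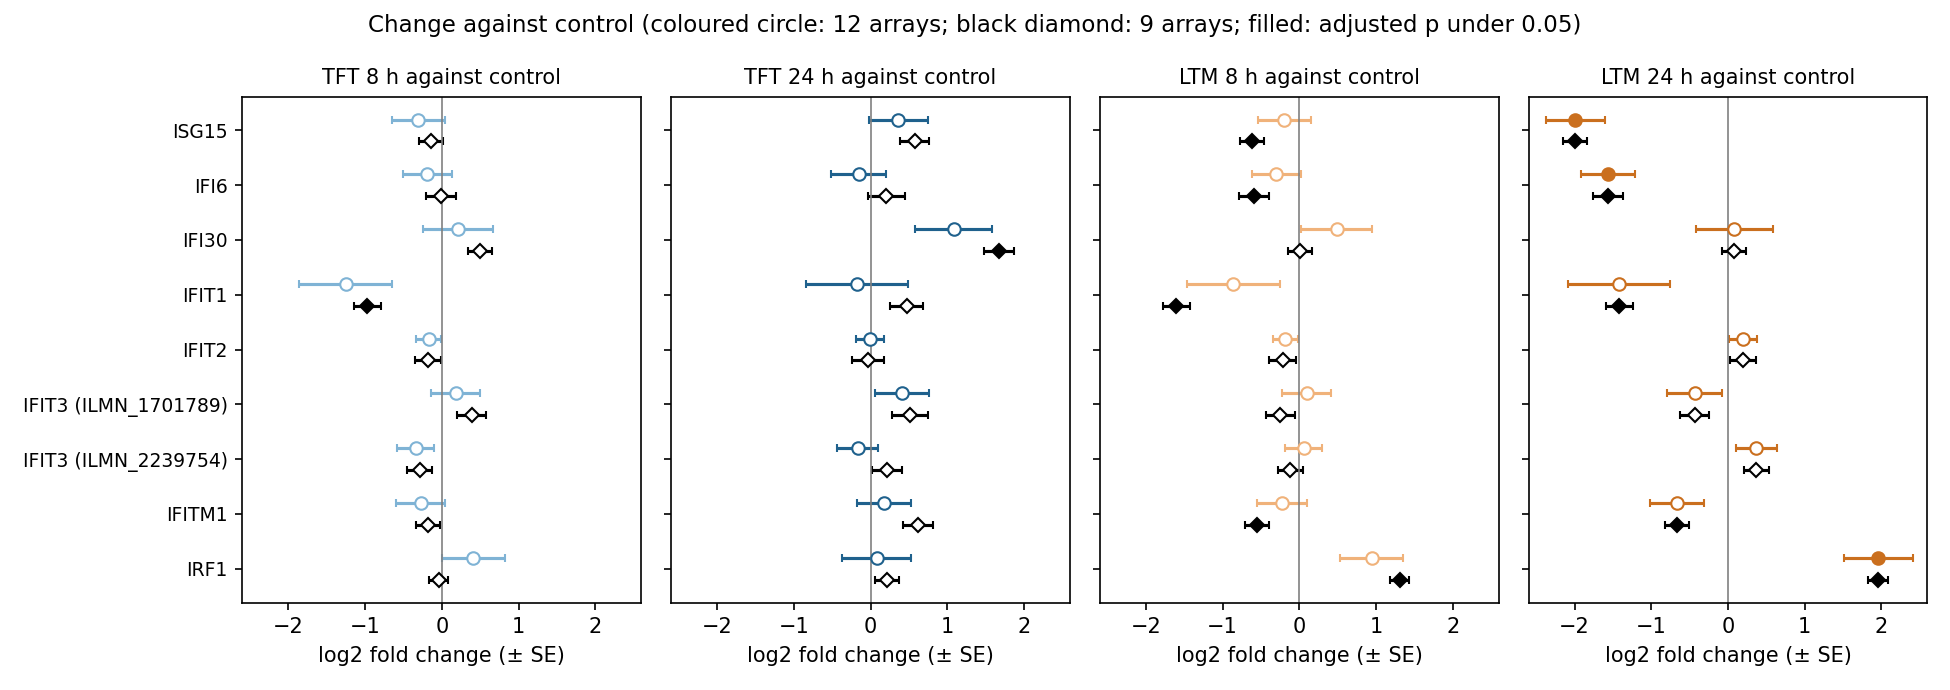
Log2 fold change against control with its SE (x axis) for the 9 tested probes (y axis) in 4 comparisons. Coloured circles are the fit of 12 arrays and black diamonds that of 9 arrays, and filled symbols passed an adjusted p under 0.05. On 12 arrays the filled symbols are ISG15, IFI6 and IRF1 at LTM 24 h, at -1.99, -1.56 and 1.96.

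At LTM 8 h as labelled, 0 of 9 member probes passed, as did 0% of all probes (limma), with 1 member and 3828 (15.7%) of all probes at an unadjusted p under 0.05 and 0 members with the trended, robust prior. The array labelled replicate 1 decided this comparison. Leaving it out alone brought 2 members past the limma threshold, IFIT1 (-1.60, adjusted p = 0.038) and IRF1 (1.31, adjusted p = 0.0483). The share of all probes called in that fit is not given, so this count is no result about the members. On 9 arrays 5 members passed, 4 lower and 1 higher, against 15.4% and 14.4% of all probes.

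IRF1 stood at 10.18 and 10.34 on LTM 8 h replicates 2 and 3, above the controls at 8.92 and 8.99, and at 9.17 on the array labelled replicate 1. All 3 arrays lay above both controls, as they did for 15.9% of all probes. Its log2 fold change was 0.94 (SE 0.41, adjusted p = 0.301) as labelled and 1.31 (SE 0.13, adjusted p = 7.64e-05) on 9 arrays. IFIT1 stood at 4.98 and 5.31 on replicates 2 and 3 and at 7.38 on the array labelled replicate 1, against 6.68 and 6.82 on the controls. Replicates 2 and 3 were below both controls and the array labelled replicate 1 was above them. On 9 arrays its change was -1.60 (SE 0.18, adjusted p = 0.000157). ISG15 (7.03 and 7.39 on replicates 2 and 3) and IFI6 (7.54 and 7.56) were lower by 9 arrays with fitted changes of -0.62 and -0.59 (adjusted p = 0.0137 and 0.0443). IFITM1 was not well above background on replicates 2 and 3, and on 9 arrays was at least 1.10-fold lower than in the controls (adjusted p = 0.0253). IFIT2, IFI30 and both IFIT3 probes had 9-array changes between -0.25 and 0.01 and did not pass.

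The drugs were compared directly at 24 h, at the inhibitory concentration of each. ISG15 and IFI6 were lower and IRF1 higher after LTM than after TFT, with log2 differences of -2.35 (SE 0.38, limma adjusted p = 0.000766), -1.41 (SE 0.35, adjusted p = 0.00866) and 1.88 (SE 0.45, adjusted p = 0.00644). These 3 of 9 members, 2 lower and 1 higher, compare with 20.3% of all probes lower and 19.9% higher. The groups did not overlap for 6 member probes that were lower and 3 that were higher, against 37.6% and 33.3% of all probes. The IFI6 call was lost without TFT 24 h replicate 2 (-1.05), which left the array labelled replicate 1 alone in that group. It was also lost without LTM 24 h replicate 2 (-1.06). On 9 arrays 6 members were lower, against 25.3% of all probes, and 1 higher, against 23.9%. The added ones were IFI30 (-1.59), IFIT1 (-1.89), IFIT3 by ILMN_1701789 (-0.95) and IFITM1, with adjusted p from 7.03e-05 to 0.00733. IFITM1, not well above background on either LTM 24 h array, was at least 1.76-fold lower than on TFT 24 h replicate 2, the only TFT 24 h array that measured it. Of these, IFI30, IFIT1, IFITM1 and IFIT3 also passed on 11 arrays without the array labelled LTM 8 h replicate 1, which belongs to neither group (adjusted p = 0.0434, 0.0205, 0.023 and 0.0172). Without TFT 24 h replicate 2, IFIT3 by ILMN_2239754 was 0.91 higher after LTM, against 0.15 on 9 arrays. That fit holds only the array labelled TFT 24 h replicate 1, whose profile went against its label. Without that array instead, the IFITM1 difference was -1.29 and rests on TFT 24 h replicate 2 alone. IFIT3 by ILMN_1701789 also passed without LTM 8 h replicate 3 (adjusted p = 0.0409).

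On the 9 arrays, the order of the group means for ISG15 was TFT 24 h (8.41, n = 1), control (7.83), TFT 8 h (7.69), LTM 8 h (7.21) and LTM 24 h (5.84). Control and TFT 8 h did not differ beyond their spread, with a fitted difference of -0.14 (SE 0.16). IRF1 was ordered LTM 24 h (10.91), LTM 8 h (10.26), TFT 24 h (9.17, n = 1), control (8.95) and TFT 8 h (8.91), and the last 3 were within 0.26 of each other. IFIT1 was ordered TFT 24 h (7.22, n = 1), control (6.75), TFT 8 h (5.78), LTM 24 h (5.33) and LTM 8 h (5.15). IFIT2 had the narrowest order, from 5.86 at LTM 8 h to 6.28 at LTM 24 h.

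The 3 member probes that varied most over the 12 arrays were IFIT1, ISG15 and IRF1 (SD 0.86, 0.86 and 0.82). Among 8574 named probes of other genes detected on at least 6 arrays with an SD of at least 0.3, those nearest to IRF1 in the pattern over the 12 arrays were TRIM39, HROB, TXNL4B and IKZF5, with root-mean-square differences of 0.0946, 0.118, 0.125 and 0.126 on the log2 scale. Those nearest to ISG15 were AGTRAP, SPANXD, BGN and CCDC74B (0.145 to 0.169). Those nearest to IFIT1, ATOH8, PANX2, IDH1 and MLLT11, were further away (0.286 to 0.31). SPANXD belongs to a family of near-identical copies, so its probe can read more than 1 gene. None of the genes of the interferon lists below was among them.

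The genes around these members in the interferon pathway were taken from lists of ligands and receptors, signalling proteins, interferon regulatory factors, nucleic acid sensors and further interferon-stimulated genes. Of the 14 ligand and receptor genes with a probe, 8 were detected on 0 arrays, among them the interferons IFNB1, IFNA1, IFNG and IFNL1. IFNE, another interferon, was named after its values were seen, since 1 of its 3 probes was detected on 7 arrays, with log2 intensities of 4.78 to 5.34 over the 12. The probe of CGAS, the cytosolic DNA sensor, was also detected on 0 arrays. STAT2 and STING1 had no named probe and were not analysed here.

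After TFT for 24 h as labelled, 0 probes of the 5 lists passed, as did 0% of all probes, and on 9 arrays the number was 0 as well, against 0.317% of all probes higher and 0.0493% lower. The further interferon-stimulated genes, 48 probes of 37 genes, had a median log2 difference of 0.13 on 12 arrays and 0.23 on 9, against -0.00 and -0.01 over all probes. MX1, a dynamin-like antiviral GTPase, had a log2 difference of 0.27 (SE 0.29), and the 3 measured probes of OAS1, which makes 2-5A in response to double-stranded RNA, were at 0.44, -0.04 and 0.25. CXCL10, a chemokine, was detected on 6 arrays, on neither control and on 1 of the 2 TFT 24 h arrays. IRF9 was at 0.11, IRF3, which acts downstream of STING, at 0.28, IRF2 at 0.10 and the receptor IFNAR1 at -0.01. At TFT 8 h on 9 arrays, PARP12 was higher (0.72) and DHX58, a RIG-I-like RNA-binding protein, lower (-0.90). No other entry of these lists passed at that time, and none did on 12 arrays.

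After LTM for 24 h on 12 arrays, the further interferon-stimulated genes moved in both directions, with 10 of 48 probes higher and 10 lower. These shares were near those of all probes (20.0% and 20.9%), and the median was -0.06. The largest changes were in IFIH1, the RNA sensor MDA5 (2.35, SE 0.21, limma adjusted p = 5.3e-05), LY6E (-1.73), IFITM3 (-1.54) and IFI16, a nuclear DNA-binding sensor (1.43). IFITM1, IFITM2 and IFITM3 are closely similar in sequence, so a probe may read more than 1 of them. The OAS1 probe detected on all 12 arrays had a log2 fold change of -0.82, which did not pass on 12 arrays but passed on 9. The other 2 measured OAS1 probes passed but were not well above background on either LTM 24 h array, and were at least 1.92-fold and 1.53-fold lower than in the controls. On 12 arrays MX1 (-0.24) did not pass, nor did CXCL10, which was not well above background in the controls and at least 1.22-fold higher. CXCL10 passed on 9 arrays and MX1 did not. Of 9 probes of ligands and receptors 5 fell and 0 rose (median -0.67). Those that fell were in IFNLR1 (-1.43 and -0.61), IL10RB (-1.06), IFNAR2 (-1.04, with another probe at -0.25) and IFNAR1 (-0.93). The probe at the median did not pass.

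The next counts are read against the same 20.0% of all probes that rose and 20.9% that fell. Among 14 signalling probes 3 rose and 1 fell, with the kinase JAK2 at 1.11 and the phosphatase PTPN2 at 1.02. PIAS1 and PIAS3, which restrain STAT proteins, were at 0.82 and -0.64. Another PTPN2 probe, not detected in the controls, was at least 1.51-fold higher and did not pass. IRF9 (-0.14) did not pass. Of 8 probes of interferon regulatory factors and their binding proteins 3 rose and 0 fell, IRF2BP2 by both probes (2.01 and 1.23) and IRF3 (0.52), and IRF2 (0.11) did not pass. Of 20 sensor probes 6 rose and 3 fell, which besides IFIH1 and IFI16 included the kinase IKBKE (1.36) and RNASEH2A, a subunit of an RNase that removes ribonucleotides from DNA (-1.75). IFIH1 and IFI16 stand in 2 lists. At LTM 8 h 0 of the listed entries passed as labelled. On 9 arrays the further interferon-stimulated genes had 5 of 48 probes higher and 8 lower, where 14.4% and 15.4% of all probes were called, led by IFI44 (-1.30), EIF2AK2, the kinase PKR (-1.06), GBP1 (0.92; another probe 0.50) and PARP12 (0.86). The sensor list had 4 of 20 probes higher and 4 lower there, led by the adaptor TICAM1 (1.51 and 1.05 by 2 probes), TRAF3 (0.92) and IKBKE (0.83). IFI16, which rose at LTM 24 h, was among the lower ones here (-0.81). In the same fit the ligand and receptor list had 1 of 9 probes higher and 4 lower, with a median of -0.45. The signalling list had 2 of 14 higher and 0 lower, and the regulatory factor list 1 of 8 higher and 0 lower.

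**Figure D4:**
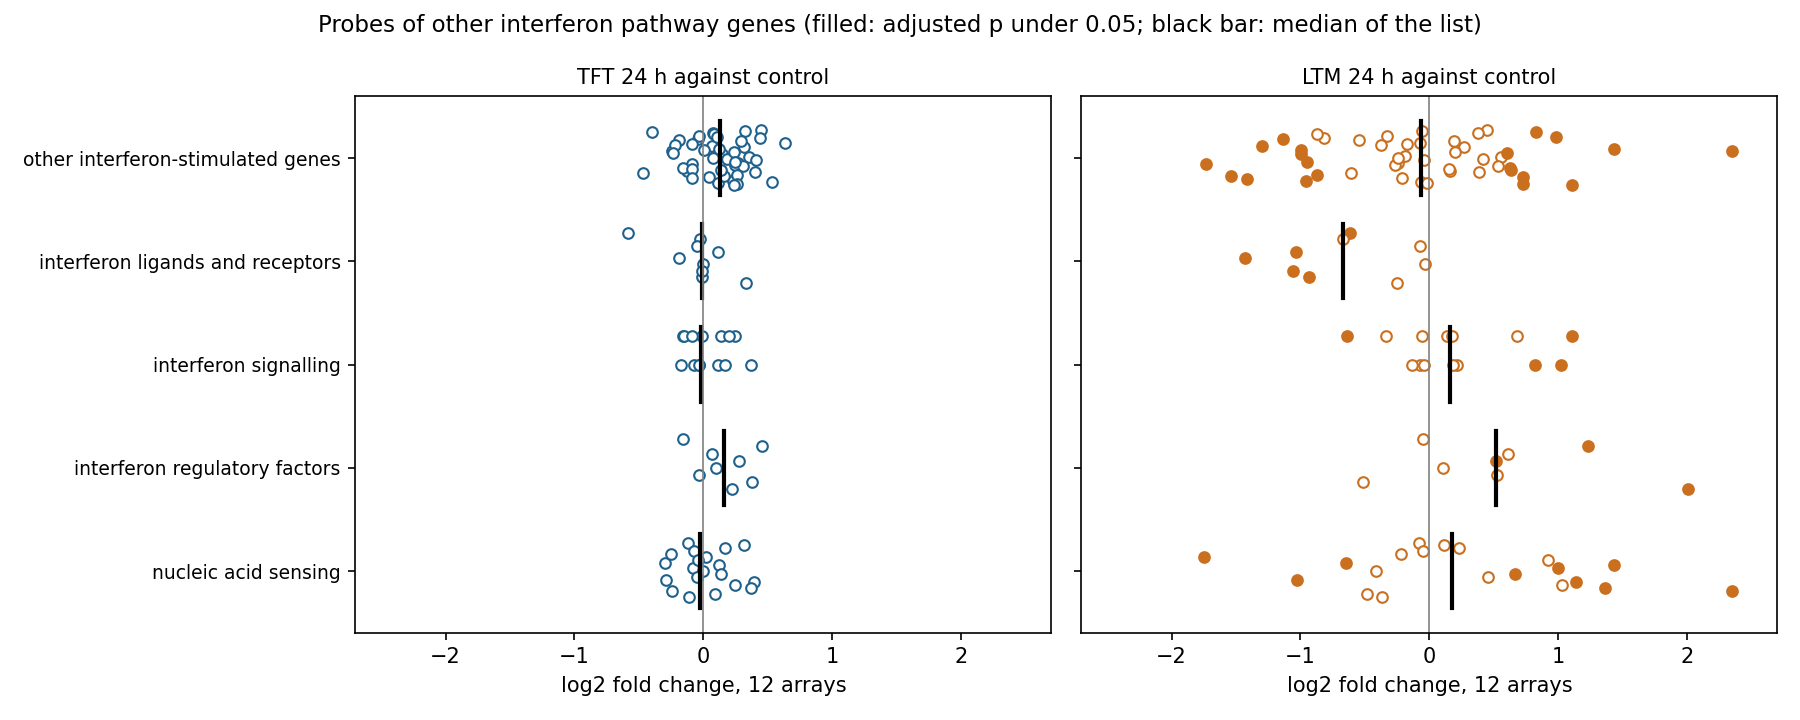
Log2 fold change on 12 arrays (x axis) of each tested probe in 5 lists of other interferon pathway genes (y axis), for TFT 24 h and LTM 24 h against control. Filled points passed an adjusted p under 0.05 and black bars are list medians. No point is filled for TFT 24 h, and for LTM 24 h the ligand and receptor list has a median of -0.67 with 5 filled points, all negative.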

How the data were processed

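RNA (300 ng a sample) from WM35 cells was labelled with biotin and hybridised to 12 Illumina arrays. The deposited scanner table gives an intensity and a detection p-value per probe, not normalized, from GenomeStudio, per the submitters' processing notes, which give no version. The deposited processed table of 38223 probes holds a linear intensity that was not centred. It ranked probes like the scanner values (rank correlation with its own array 0.969 to 0.978), its column medians ran from 23.5 to 25.2 (24.3 and 24.4 in the controls, 25.2, 25.0 and 24.0 at TFT 8 h, 24.2 and 25.0 at TFT 24 h, 24.7, 24.5 and 24.5 at LTM 8 h, 23.8 and 23.5 at LTM 24 h), and its normalization stays unknown.

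The scanner intensities were background-corrected with normexp by detection p, quantile normalized and put on the log2 scale (limma 3.58.1 neqc, offset 16, R 4.3.3). The 24325 probes detected on at least 2 arrays were fitted with 5 group means (lmFit, eBayes), with Benjamini-Hochberg adjustment over all of them. The code was tested on simulated data. Precision is limited by the number of arrays. Of the scanner probes, 20226 had no gene name here, 27004 had 1 symbol and 4 several. Of the named rows, 26970 matched RefSeq by Entrez identifier.

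Members and lists were chosen with earlier results of these data known. Every member probe is accounted for. One gene of the pathway is not reported here. Of the pathway genes, at most 4 per list and comparison were named, by absolute log2 fold change among those that passed, with a fixed set named whatever their result and 3 checks of the trifluridine response. Alternatives covered scaling, filters, the deposited processed values, gene-level values, the samples fitted, each array left out and the replicate number as a block. Same-numbered arrays had correlated deviations from -0.53 to 0.63 over 21 pairs, and different-numbered arrays from -0.76 to 0.66 over 36 pairs. The extremes came from TFT 8 h with LTM 8 h, which each hold an array that went against its label. These ranges cannot show whether the numbers pair samples, and the main fit did not use them.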

Additional observations from a re-analysis of the deposited data

Results flagged for a closer look

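The effects of the drugs at 24 h differed for 3 of the 9 tested probes, by a direct test of LTM 24 h minus TFT 24 h on the 12 arrays as labelled (limma, adjusted over 24325 probes). ISG15 differed by -2.35 on the log2 scale (adjusted p = 0.000766), with means of 5.84 after LTM and 8.19 after TFT. IFI6 differed by -1.41 (adjusted p = 0.00866), with means of 6.58 and 7.98. IRF1 differed by 1.88 (adjusted p = 0.00644), with means of 10.91 and 9.03. Both LTM arrays lay on the same side of both TFT arrays for each of these genes. Of all probes, 20.3% passed lower and 19.9% higher in this comparison. TFT 24 h replicate 1, 1 of the 3 arrays whose profile did not match the label, is in this comparison. Without the 3 arrays the differences were -2.57 for ISG15, -1.76 for IFI6 and 1.74 for IRF1. Single genes were not tested for an array far from its group, since groups hold 2 or 3 arrays.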

How the results depend on the processing

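On 9 arrays the number of member probes called was 1 for TFT 24 h, 1 for TFT 8 h, 5 for LTM 24 h and 5 for LTM 8 h against control, 2 for TFT 24 h against TFT 8 h and 7 for LTM 24 h against TFT 24 h. With only the 2 groups compared in the fit it was 5 for LTM 24 h against control and 7 for LTM 24 h against TFT 24 h. With each array left out in turn, the number stayed at 0 for TFT 24 h, TFT 8 h and TFT 24 h against TFT 8 h, and ranged from 2 to 4 for LTM 24 h, from 0 to 2 for LTM 8 h and from 2 to 7 for LTM 24 h against TFT 24 h. With the replicate number as a block, 4 members were called for LTM 24 h against TFT 24 h, and the crossed pairing, chosen after seeing the data, also gave 4. The block gave 3 for LTM 24 h against control and 0 in the others. Apart from the fit of 9 arrays, these counts are not set against the share of all probes called in the same fit. They describe the fits and are no result about the members.

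Values that changed sign passed in neither fit. On 9 arrays these were IFI6 0.20, IFIT1 0.47 and IFIT3 (ILMN_2239754) 0.21 at TFT 24 h, IRF1 -0.0405 at TFT 8 h, IFIT3 -0.25 (ILMN_1701789) and -0.12 (ILMN_2239754) at LTM 8 h, and IRF1 0.26 between the TFT times. Scaling to the median gave IRF1 -0.0396 at TFT 24 h and IFIT3 -0.0748 and -0.11 at LTM 8 h, where it moved the median of all probes from -0.01 to -0.13. The deposited processed values gave IFIT3 (ILMN_2239754) -0.0544 at LTM 8 h and IFI6 -0.0104 between the TFT times, where the replicate block gave IFI6 -0.13, IFIT3 (ILMN_1701789) -0.0227 and IRF1 0.00675. With each array left out in turn, log2 fold changes that changed sign ran as follows. For TFT 24 h against control they were IFI6 from -0.515 to 0.203, IFIT1 from -0.814 to 0.47, IFIT2 from -0.254 to 0.237, IFIT3 (ILMN_2239754) from -0.547 to 0.214, IFITM1 from -0.28 to 0.621 and IRF1 from -0.0571 to 0.217. For TFT 8 h against control they were IFIT2 from -0.416 to 0.0752 and IRF1 from -0.0405 to 0.641. For LTM 24 h against control they were IFI30 from -0.060 to 0.221 and IFIT2 from -0.0502 to 0.441. For LTM 8 h against control they were ISG15 from -0.62 to 0.104, IFIT2 from -0.43 to 0.0619, IFIT3 (ILMN_1701789) from -0.247 to 0.395, IFIT3 (ILMN_2239754) from -0.117 to 0.191 and IFITM1 from -0.548 to 0.0288. For TFT 24 h against TFT 8 h they were IFI6 from -0.326 to 0.392, IFIT3 (ILMN_2239754) from -0.206 to 0.555, IFITM1 from -0.00273 to 0.898 and IRF1 from -0.561 to 0.121. The cause was not tested. Signal over background limits what can be said of IFI27, detected on 0 arrays, and IFITM1, detected on 5. IFIT1 and IFI30 also came close to background on some arrays, so the sizes of their fold changes are less certain.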
